A study of Mus musculus with 9 samples.

Results

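The comparison is between intestinal stem cells after 4 days of tamoxifen, given to delete Kansl1, and control stem cells. It uses 6 of the 9 RNA-seq libraries of the series, 3 of the knockout at day 4 and 3 controls, chosen by their titles and genotype labels. The mice carried the Lgr5-EGFP-CreERT2 allele, which places green fluorescent protein (GFP) and a tamoxifen-activated Cre recombinase under the Lgr5 promoter, together with loxP-flanked (floxed) Kansl1. The KO day 4 group (labelled KANSL1-KO) received tamoxifen on each of 4 days. The control group (labelled KANSL1-WT) received corn oil. The labels name the floxed and Cre alleles for the tamoxifen group and do not say outright that controls carried both. Both groups are small intestinal cells sorted for Lgr5-GFP, so Cre and GFP are limited to cells with an active Lgr5 promoter. Knockout and tamoxifen went together and cannot be told apart. Whether the replicates came from different animals is not stated, and the p-values then describe only how far these libraries scatter, which may be technical.

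KANSL1 is the scaffold of the non-specific lethal (NSL) complex, in which the acetyltransferase KAT8 acetylates histone H4 at active promoters, many of them promoters of housekeeping genes. Part of the complex has also been found in mitochondria. Lgr5+ stem cells at the crypt base divide steadily, renew the epithelium and sit between Paneth cells, which make antimicrobial peptides and niche signals. The comparison asks which transcripts of these cells differ after treatment meant to remove KANSL1.

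The libraries held 12164479 to 17913787 counts in controls and 11174583 to 16943055 at day 4, but transcripts of the mitochondrial genome took 16.4% to 25.8% of them in controls and 66.9% to 72.1% at day 4. That left 9996919 to 13980785 counts of nuclear genes per control and 3115374 to 5614186 per day 4 library. All levels below are nuclear CPM (counts per 1000000 counts of nuclear genes), scaled by the trimmed mean of M-values (TMM), with libraries given in the order of replicates 1, 2 and 3. The stem cell label was checked first. Lgr5 itself was at 53.8, 61.1 and 69 CPM in controls and 39.3, 47.7 and 26.5 at day 4 (log2 fold change of -0.69, standard error (SE) 0.23, with an adjusted p of 0.0567 by edgeR). Olfm4, an abundant secreted stem cell marker, was at 14839, 15197 and 15624 CPM in controls and fell to 7437, 6738 and 2757. Both markers were therefore present in all 6 libraries, and for Lgr5 the groups did not overlap although the test was not passed. Of all 12654 nuclear genes tested, 3287 had every day 4 library below every control.

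The targeted gene checked the labels only in part. Kansl1 (chromosome 11, 104333229 to 104468861, minus strand, GRCm38) was at 7.86, 19.99 and 17.3 CPM in controls and 5.17, 9.08 and 16.1 at day 4, so the groups overlapped (log2 fold change of -0.61, SE 0.49, with an adjusted p of 0.388 by edgeR). KO day 4 replicates 2 and 3 were within the range of the controls. A floxed gene can keep reads of the exons outside the deleted part, and the labels do not say which exons are floxed. Among the partners, the coregulator Hcfc1 was at 43.3, 45.6 and 43.3 CPM in controls and 88.4, 78 and 57 at day 4 and passed the test (log2 fold change 0.76, edgeR adjusted p = 0.0203). That call was lost in 5 of the 6 fits with 1 library left out, all but the one without KO day 4 replicate 3 (edgeR adjusted p up to 0.074). Kat8 was at 18.8, 21.4 and 19.8 CPM and 15.1, 16.7 and 31.7, and none of Kansl2, Kansl3, Wdr5, Phf20, Mcrs1 or Ogt of the complex, nor Msl1, Msl2 or Msl3 of the MSL complex that shares KAT8, passed.

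The sorted populations also differed in the markers of other cells (marker lists summed over all members, CPM of nuclear counts without TMM). Paneth cell markers (23 genes) summed to 61910, 25680 and 24700 CPM in controls and 136900, 132700 and 184300 at day 4. The tuft cell list (24 genes) summed to 17.9 to 18.7 CPM in controls and 251 to 674 at day 4, the enteroendocrine list (31 genes) to 83.5 to 220.0 and 505 to 852, the goblet list (21 genes) to 2467 to 3109 and 4274 to 6713. For mast cells, leaving out Kit, the sum was 0.400 to 1.29 CPM in controls and 581, 1089 and 1666 at day 4. The T cell list (28 genes) summed to 2.79 to 6.44 CPM in controls and 30.8 to 81.5 at day 4, the myeloid list (29 genes) to 13.1 to 27.4 and 44.2 to 106, and the pan-leukocyte list (20 genes) to 71.0 to 76.1 and 169 to 315. The enterocyte list (18 genes) went the other way, from 953 to 1166 CPM to 478 to 532. The B cell sum (18 genes) without TMM was also lower at day 4, from 215 to 284 CPM to 88.0 to 168. The TMM factors were 1.10 to 1.27 in controls and 0.80 to 0.86 at day 4, and with them the B cell sums overlap. Only 3 B cell genes were tested and none passed, and 1 of the 18 was counted in each day 4 library. The stroma, endothelium, nerve and muscle list (28 genes) was higher, from 30.7 to 39.1 CPM to 56.5 to 115. Without TMM, the groups did not overlap in these 11 lists, and the exact two-sided permutation p was 0.1, the smallest that 3 against 3 libraries allow. Of 28 T cell markers 20 had no count in any day 4 library, among them Cd3d, Cd3e, Cd3g, Cd4 and Trac. Of the same 28 markers, 18 had no count in any control, and 15 had none in any of the 6 libraries. Of 18 B cell markers 9 had none at day 4, among them Ms4a1 and Cd79a, and 5 had none in any control. In the myeloid and mast lists 10 of 29 and 4 of 24 had none at day 4, and 16 and 13 had none in any control. The share of unprocessed pseudogenes was 1.82% to 3.27% for controls, against 15.4% to 17.98% in the day 4 libraries, and leaving them out gave 1752 genes higher and 1533 lower. In bulk RNA, fewer cells of a type and less RNA per cell cannot be told apart. KO day 4 replicate 3 stood apart. Across genes, its log2 CPM correlated at 0.891 and 0.897 with replicates 1 and 2, against 0.9495 between replicates 1 and 2 and 0.975 to 0.979 among controls. It also had the highest mitochondrial share and the highest Paneth, tuft and mast sums. The part that these shifts in composition have in the gene results below was not tested.

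**Figure D1:**
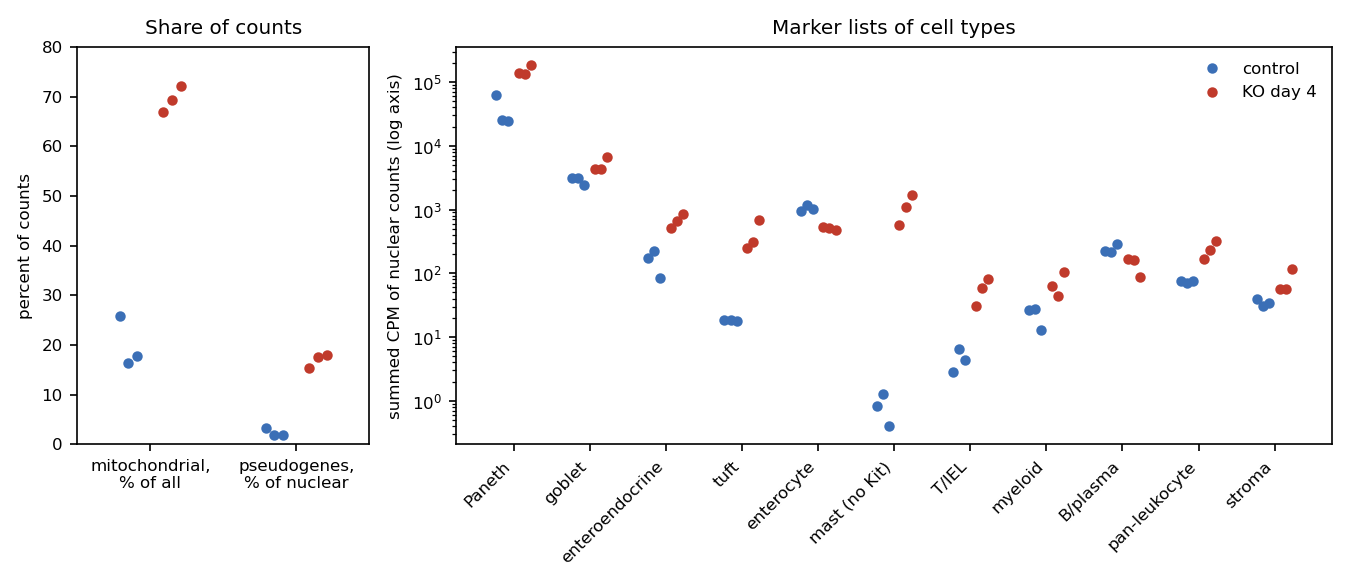
Left, percent of all counts from the mitochondrial genome and percent of nuclear counts from unprocessed pseudogenes, for each library (blue, control; red, KO day 4). Right, summed CPM of each marker list on a log axis; mast cell markers without Kit go from at most 1.29 CPM in controls to at least 581 at day 4, while enterocyte markers are lower at day 4.

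Of 12654 nuclear genes tested, 3272 (25.9%) passed edgeR's quasi-likelihood test at a Benjamini-Hochberg adjusted p below 0.05. Of all tested genes, 1739 were called higher (13.7%) and 1533 lower (12.1%). These shares are the background for every count below that comes from this fit of all 6 libraries. In every list, members too low in controls to pass the filter there entered the test only through day 4. They could be counted only as rises. Over 4-fold changes were seen in 639 genes that rose and 361 that fell. Counts from fits with 1 library left out have their own background. Without control replicates 1, 2 and 3 in turn, 1091, 891 and 1049 genes were higher and 685, 597 and 768 lower. Without KO day 4 replicates 1, 2 and 3 in turn, 1723, 1373 and 1949 were higher and 1595, 1180 and 2111 lower. These fits tested 12628 to 13479 genes. With scaling by nuclear library size alone the median of all genes moved from -0.04 to -0.56 on the log2 scale and the calls became 870 higher and 4243 lower, so 17% of the called genes were higher, against 53.1% with TMM. Changes are given relative to TMM, and a list median between 0 and about 0.5 turns negative with that scaling. Of the genes named below as rising, Dnajc3, Ect2, Ep300, Hcfc1, Idh1, Kmt2b and Tomm6 did not pass with it. No called gene was called in the opposite direction under any alternative setting tried. Each gene named below as rising or falling kept its call with each of the 6 libraries left out in turn, unless a sentence says otherwise. For list counts of 4 or more, with control 1 to 3 and KO 1 to 3 standing for the control and KO day 4 replicates, brackets give the count in each fit without one of these libraries that moved it by over 1.5 times, or else its range over the 6 fits. Counts of 3 or fewer are printed without them, and many of these also moved by over 1.5 times.

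Promoters were described by sequence because the NSL complex binds at promoters. RefSeq gives a single start window for 7271 of the tested genes (57.5%), and the 250 bases before the start were read. Median GC was 57.2% for genes that fell, 61.6% for those that rose and 60.0% for all, and the median ratio of observed to expected CpG was 0.67, 0.74 and 0.75. Among genes of at least 5 CPM in controls that ratio was 0.68, 0.81 and 0.78. The letters TATAAA, on either strand, were in 6.72% of falling, 9.85% of rising and 6.53% of all these windows, GGGCGG (the core of the GC box) in 56.4%, 62.3% and 62.0%, CCAAT in 38.5%, 35.3% and 37.6%, CACGTG (an E-box) in 9.13%, 8.12% and 8.66%, and CCGGAAG (an ETS-type motif) in 14.6%, 11.3% and 15.6%. Of all 22862 RefSeq genes with 1 window, 13.6%, 32.4%, 34.7%, 5.92% and 7.09% hold these motifs in that order. A match says only that the letters are there.

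The windows of 6 genes from groups described here are shown to set rising and falling members side by side, 3 that rose (Trib3, Gars, Hmgcs1) and 3 that fell (Polrmt, Man2b1, Ift52). They run 5′ to 3′ on the gene's strand (RefSeq, GRCm38.p6), at chr2:152344061-152344310 (minus), chr6:55037751-55038000 (plus), chr13:119690101-119690350 (plus), chr10:79746582-79746831 (minus), chr8:85083019-85083268 (plus) and chr2:163017103-163017352 (plus), before the RefSeq start, and overlap no exon of the annotation used. Capitals mark the 5 motifs above on either strand.
Trib3: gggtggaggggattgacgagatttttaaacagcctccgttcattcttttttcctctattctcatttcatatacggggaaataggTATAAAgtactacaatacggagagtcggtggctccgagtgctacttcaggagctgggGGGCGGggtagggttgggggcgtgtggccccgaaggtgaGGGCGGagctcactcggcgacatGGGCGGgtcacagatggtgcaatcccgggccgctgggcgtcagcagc
Gars: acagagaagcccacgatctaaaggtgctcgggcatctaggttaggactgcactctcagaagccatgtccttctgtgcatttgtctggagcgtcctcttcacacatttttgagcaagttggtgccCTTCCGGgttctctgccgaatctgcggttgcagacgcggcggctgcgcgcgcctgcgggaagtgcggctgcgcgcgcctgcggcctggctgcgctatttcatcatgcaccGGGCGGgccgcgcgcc
Hmgcs1: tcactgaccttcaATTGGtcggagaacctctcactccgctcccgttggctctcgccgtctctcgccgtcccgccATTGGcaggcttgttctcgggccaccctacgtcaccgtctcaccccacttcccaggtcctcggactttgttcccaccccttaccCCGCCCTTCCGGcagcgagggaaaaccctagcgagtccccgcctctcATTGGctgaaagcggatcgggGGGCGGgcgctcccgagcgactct
Polrmt: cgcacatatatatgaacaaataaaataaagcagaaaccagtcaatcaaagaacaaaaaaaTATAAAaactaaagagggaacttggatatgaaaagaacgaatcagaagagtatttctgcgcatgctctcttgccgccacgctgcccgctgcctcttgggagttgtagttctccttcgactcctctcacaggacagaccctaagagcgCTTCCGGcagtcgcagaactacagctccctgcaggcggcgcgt
Man2b1: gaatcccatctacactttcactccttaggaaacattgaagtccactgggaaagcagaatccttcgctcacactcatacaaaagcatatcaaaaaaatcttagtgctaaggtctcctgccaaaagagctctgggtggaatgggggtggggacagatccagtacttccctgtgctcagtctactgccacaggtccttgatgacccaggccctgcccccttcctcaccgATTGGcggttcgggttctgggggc
Ift52: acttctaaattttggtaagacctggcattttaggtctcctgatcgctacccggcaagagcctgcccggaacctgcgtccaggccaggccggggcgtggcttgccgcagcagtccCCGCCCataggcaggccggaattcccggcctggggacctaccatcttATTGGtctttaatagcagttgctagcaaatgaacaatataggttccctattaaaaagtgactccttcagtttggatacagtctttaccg
Trib3 and Polrmt both hold a TATAAA, although the first rose by 4.49 and the other changed by -1.89 on the log2 scale. GC was 57.2% in the Trib3 window, 62.4% in Gars, 64.8% in Hmgcs1, 46.8% in Polrmt, 52.0% in Man2b1 and 52.8% in Ift52. Hmgcs1 has 3 CCAAT boxes, all marked as ATTGG on the strand shown, and Man2b1 and Ift52 have 1 each. CCGGAAG was found in Gars, Hmgcs1 and Polrmt. No motif was shared by the 3 that fell and absent from the 3 that rose.

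Among called genes with a mean of at least 5 CPM over the 6 libraries and no overlap between groups, 9 of the 10 largest falls are named here, while weaker genes had larger fitted values: Hdac8, an X-linked class I histone deacetylase, Pipox, a peroxisomal oxidase, Ces1d, a carboxylesterase, Haghl, a glyoxalase-like protein, Slc38a4 and Slc28a2, transporters of amino acids and nucleosides, Cand2, a cullin exchange factor, Amt, of the mitochondrial glycine cleavage system, and Dmbt1, a mucosal scavenger protein. Ces1d (chromosome 8, 93166068 to 93197838) was at 116, 82.7 and 87.1 CPM in controls and 3.72, 1.7 and 0 at day 4, and Hdac8 at 11.6, 10.2 and 9.77 and 0, 0 and 0.803. Dmbt1 (chromosome 7, 131032053 to 131121630) was abundant in controls at 1161, 1637 and 627 CPM and was at 68.6, 39.7 and 57 at day 4 (log2 fold change of -4.37, SE 0.38, with an adjusted p of 0.000508 by edgeR). The highest day 4 library of each of these 3 lay far below the lowest control. Cemip, the other one, lost its call without control replicate 2 (edgeR adjusted p = 0.0592).

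At the same level and outside the immune, blood and stromal marker lists, the largest rises were Cd300a, Cd200r3, Cyp11a1, Lilrb4a, F13a1, Ifitm1, Pla2g7, Il10ra, Bmx and Itga2b, most of them genes known from blood cells. Of these, 8 had at most 3 counts over the 3 controls. Cd300a had 0 control counts and 156 at day 4, at least 150-fold higher against a floor of 3 counts over the 3 controls. Cyp11a1, the first enzyme of steroid synthesis, had 3 and 494 counts, a ratio of 475 per nuclear count (95% counting interval 162 to 2312). In all 10 the highest library was KO day 4 replicate 3, which also had the highest mast cell sum. By the same rule at a mean of at least 100 CPM, the largest rise was that of Cdkn1a, followed by Nupr1, a stress-induced chromatin protein, and by Pla2g2f, Pnliprp2, Mptx2, Lyz1 and Itln1. Mptx2, Lyz1, Itln1 and Nupr1 belong to the Paneth list, and one more gene of this rank is left out because its symbol is shared by another annotated gene that overlaps it. Of those that fell at this level, the water channel Aqp1 was at 1011, 1051 and 793 CPM in controls and 328, 259 and 214 at day 4, the potassium channel Kcnq1 at 382, 421 and 334 and 157, 108 and 103, and Oat, ornithine aminotransferase, at 2484, 2414 and 2332 and 974, 838 and 561.

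**Figure D2:**
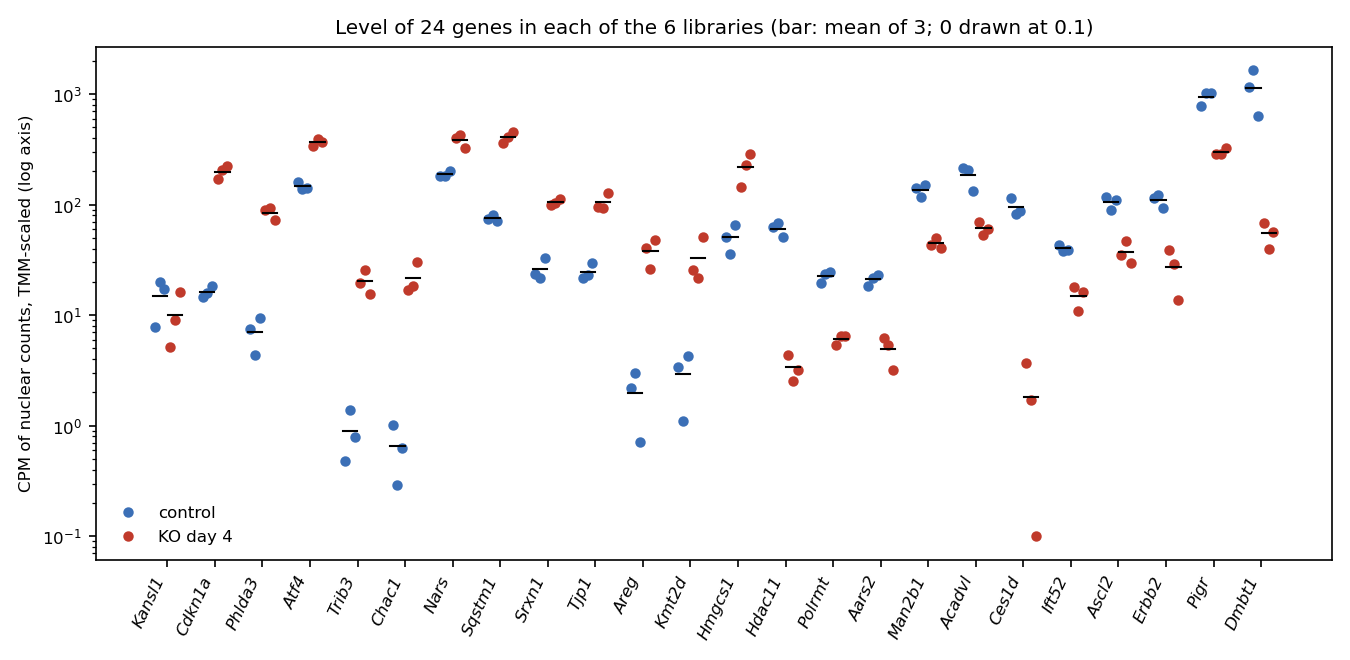
CPM of 24 genes named in the text (log axis) in each control (blue) and KO day 4 (red) library, with the mean of 3 as a bar. Kansl1 overlaps between the groups, Cdkn1a goes from at most 18.4 to at least 171 CPM, and Hdac11 and Ces1d from at least 50.8 and 82.7 to at most 4.34 and 3.72.

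Targets of p53 were higher at day 4 more often than genes at large. p53 is the transcription factor that DNA damage and other stresses stabilise, and its targets stop the cell cycle or start apoptosis. Of 33 tested targets, 19 rose (13 to 20) and 2 fell, with a median log2 fold change of 1.34. Cdkn1a, the cyclin-dependent kinase inhibitor p21 (chromosome 17, 29090976 to 29100727), was at 14.5, 15.7 and 18.4 CPM in controls and 171, 204 and 221 at day 4 (log2 fold change of 3.62, SE 0.18, with an adjusted p of 4.68e-05 by edgeR). Phlda3, which restrains AKT signalling, was at 7.52, 4.36 and 9.38 CPM and 88.4, 92.2 and 72.7, and Ccng1, cyclin G1, at 119, 94.2 and 110.2 and 457, 506 and 444. All 3 day 4 libraries were alike and several-fold above the controls, including replicate 3. Among apoptosis regulators the effectors went apart: Bax rose from 70.2, 51.1 and 48.2 CPM to 161, 173 and 126, and the BH3-only genes Bbc3 (log2 fold change 1.92) and Pmaip1 (1.32) rose, while Bak1, the partner effector of Bax, fell from 81.6, 80.2 and 95 CPM to 35.1, 30.4 and 31.3. In all, 6 of 31 apoptosis regulators rose (3 without control 2 and 3 without control 3) and 2 fell, or 4 without KO day 4 replicate 3.

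The integrated stress response, in which phosphorylation of eIF2 favours translation of ATF4 and thereby amino acid and redox genes, rose in 17 of 29 tested members (13 to 19) and fell in none, with a median of 1.33. Atf4 itself was at 160.3, 138 and 142 CPM in controls and 337, 392 and 366 at day 4 (log2 fold change of 1.31, SE 0.13, with an adjusted p of 0.000711 by edgeR). The pseudokinase Trib3 (chromosome 2, 152337422 to 152344032) was at 0.478, 1.39 and 0.788 and 19.6, 25.8 and 15.7, the glutathione-degrading enzyme Chac1 at 1.02, 0.29 and 0.63 and 16.7, 18.2 and 30.1, and Mthfd2, of mitochondrial one-carbon metabolism, at 31.1, 41.4 and 44.5 and 126, 144 and 169.8. Trib3 and Chac1, low in controls, passed the filter only through day 4 and could be counted only as rises. The median of the list in each day 4 library, as the deviation from the control mean in log2(CPM + 0.5), was 1.20, 1.24 and 1.23 in replicates 1, 2 and 3, so the libraries lay close together. By contrast the unfolded protein response of the endoplasmic reticulum had 5 of 26 members higher (3 without control 2) and 1 lower, with a median of 0.20 that becomes -0.32 with library-size scaling. Edem1 (log2 fold change 1.30), Dnajc3 (0.87) and Dnajb9 (1.17), which act in the folding and disposal of secretory proteins, were among those that rose.

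Aminoacyl-tRNA synthetases, which load amino acids onto tRNAs, were examined as a cytosolic and a mitochondrial list, which differed in direction. Of 20 cytosolic enzymes 9 rose (5 without control 2) and 1 fell (median 0.54), whereas of 17 mitochondrial enzymes none rose and 8 fell (4 without control 2, 5 without control 3 and 5 without KO 2, median -0.72). For glycine, Gars (chromosome 6, 55038007 to 55079500) was at 158, 144 and 163 CPM and 274, 302 and 352, and for asparagine Nars at 182, 180.5 and 202 and 399.8, 427 and 323. Gars encodes the enzyme of both compartments, so its rise does not belong to the cytosol alone. For alanine the 2 genes can be set side by side: cytosolic Aars was at 140.1, 103 and 100.1 CPM in controls and 244, 341 and 397 at day 4, and mitochondrial Aars2 at 18.3, 21.6 and 23.1 and 6.2, 5.39 and 3.21. Their log2 fold changes were 1.52 (SE 0.21, edgeR adjusted p = 0.00266) and -2.05 (SE 0.33, edgeR adjusted p = 0.00383). Vars2 and Fars2, the mitochondrial enzymes for valine and phenylalanine, fell by 1.26 and 1.11 on the log2 scale. Several cytosolic synthetase genes also belong to the stress response list, so both counts share members.

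**Figure D3:**
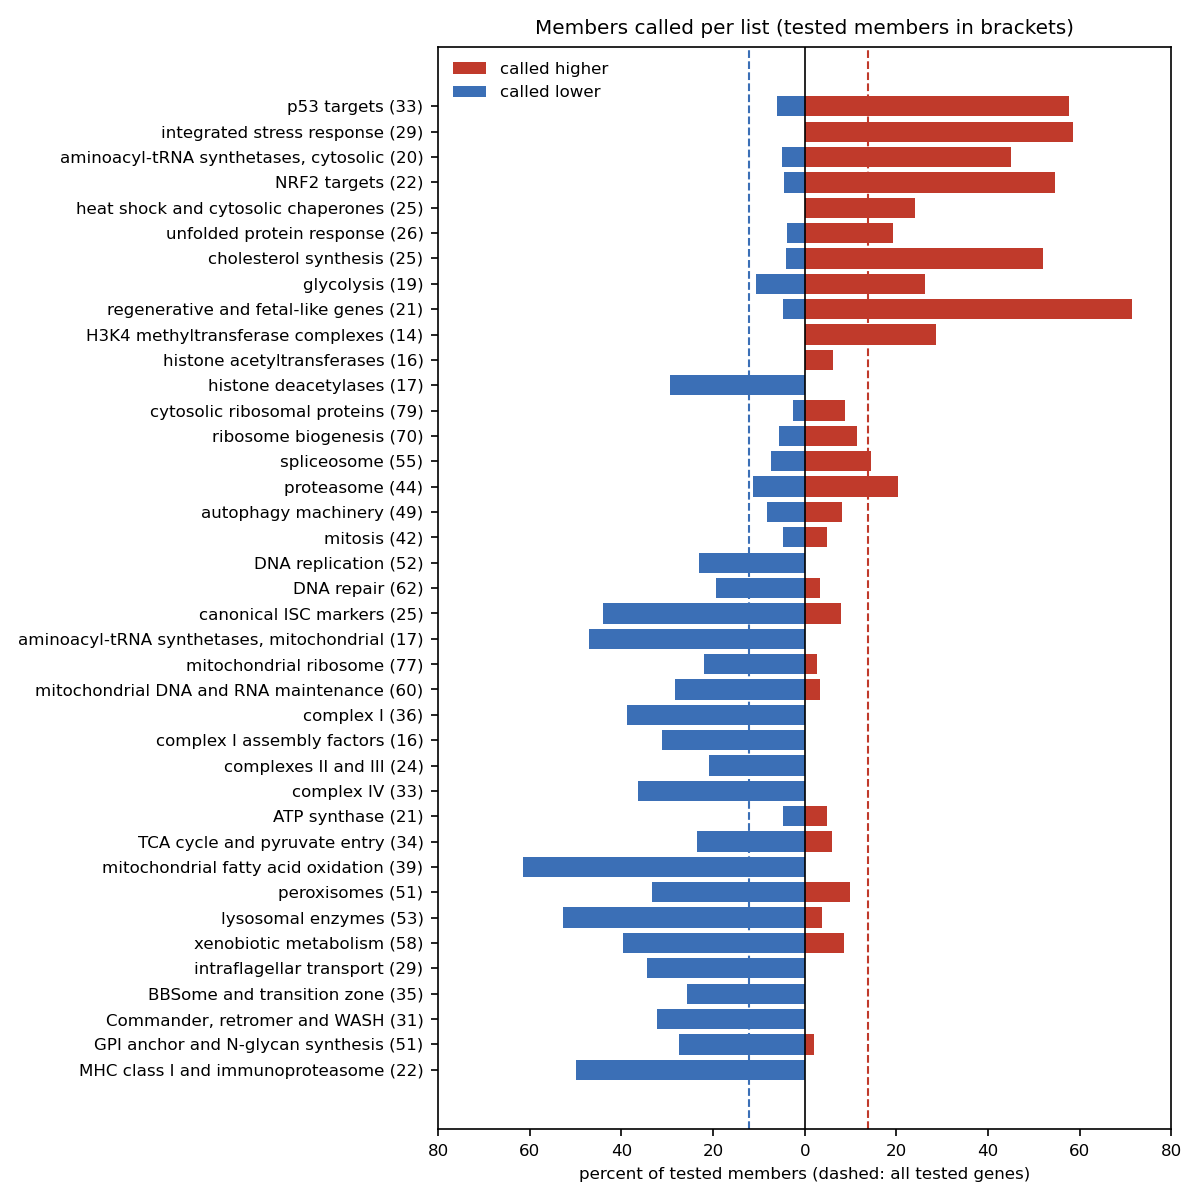
Percent of the tested members of 39 lists called higher (red, right) or lower (blue, left), with the number tested in brackets; dashed lines mark 13.7% and 12.1%, the shares over all tested genes. Stress, cholesterol and regenerative lists extend to the right, while mitochondrial, peroxisomal, lysosomal and ciliary lists extend to the left.

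Antioxidant genes under NRF2, the transcription factor of oxidative stress, rose in 12 of 22 members (9 to 13) and fell in 1. Srxn1, sulfiredoxin, was at 23.7, 21.6 and 32.8 CPM in controls and 99.6, 104 and 111 at day 4. Hmox1, which degrades haem, was at 0.615, 0.697 and 0.315 and 15.1, 35.2 and 39.3. At day 4 it was lowest in the library with the lowest mast cell sum and highest in that with the highest. Hmox1, near 0 in controls, passed the filter only through day 4 and could be counted only as a rise. Ferritin light chain, Ftl1, was at 263, 168 and 186 and 599, 1246 and 1325, and shares reads with near-identical copies, so its value is uncertain. The autophagy receptor Sqstm1, also a target of NRF2, was at 74.3, 81.1 and 70.4 CPM and 361, 406 and 450.4 (log2 fold change of 2.43, SE 0.14, with an adjusted p of 0.000107 by edgeR), while the autophagy machinery as a list had 4 of 49 members higher (3 to 6) and 4 lower (3 to 6), both shares under the background. One of those that fell was Pik3r4, a subunit of the lipid kinase that starts autophagosomes, at 17.4, 19 and 16.9 CPM and 2.89, 0.851 and 2.41. Glutathione transferases went mostly the other way, with 6 of 21 lower (2 without control 1, 2 without control 2 and 3 without control 3) and 2 higher: Gstm2 was at 35.4, 43.8 and 34.6 CPM and 4.75, 1.99 and 0, and Gsta2 at 1.23, 1.57 and 0.709 and 7.23, 11.6 and 8.83.

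Cholesterol synthesis rose in 13 of 25 genes (7 without control 1, 7 without control 2 and 8 without KO 2) and fell in 1, with a median of 1.08. Hmgcs1 (chromosome 13, 119690379 to 119708260), which makes the substrate of the rate-limiting reductase, was at 51.3, 35.7 and 65.2 CPM in controls and 144, 230.2 and 286 at day 4, and Lss, lanosterol synthase, at 21.9, 13.4 and 35 and 65.3, 104 and 83.1. Fdft1, squalene synthase, was at 69.5, 47.2 and 59.6 and 150, 230.5 and 209. The exception was the sterol isomerase Ebp, which fell from 86.6, 79.5 and 87.2 to 35.7, 47.4 and 47. Lipid synthesis otherwise went both ways in 24 genes, with 4 higher (2 without control 1, 1 without control 2 and 1 without KO 2) and 7 lower (4 without control 1, 4 without control 2 and 4 without control 3). The triglyceride enzyme Dgat1 fell from 69.6, 90.7 and 70.6 CPM to 28.9, 25.3 and 24.1, as did the desaturases Fads1 and Fads2 (log2 fold changes -0.87 and -1.11), while the phosphatidate phosphatase Lpin2 rose (2.17). Glycolysis had 5 of 19 genes higher (1 without control 2 and 3 without control 3) and 2 lower, with Pfkp, a phosphofructokinase, at 17.1, 9.41 and 21.3 CPM and 45.7, 42.3 and 38.1.

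Nuclear genes of the respiratory chain that passed the test were lower with 1 exception, in libraries where transcripts of the mitochondrial genome were 69.4% of counts on average. Of 36 complex I subunits, 14 fell (8 without control 1, 7 without control 2 and 9 without KO 2) and none rose (median -0.50). Among them, Ndufa7 was at 131, 136 and 110.4 CPM in controls and 65.3, 60.5 and 56.2 at day 4. Complex IV and its assembly factors had 12 of 33 lower (5 without control 1, 3 without control 2 and 6 without control 3, median -0.37), among them Cox6a1 (479, 558 and 525 CPM and 303, 272 and 216) and the assembly factor Surf1 (35.2, 34.1 and 31.6 and 13.4, 9.93 and 6.02). Complexes II and III had 5 of 24 lower (1 without control 1, 1 without control 2, 3 without control 3 and 3 without KO 2), with Uqcrc1 at -0.59, and ATP synthase 1 of 21 lower and 1 higher, a share of falls below the background of 12.1%. These lists had a median log2 fold change between -0.21 and -0.50, and every such median was negative in each of the 3 day 4 libraries.

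Genes that keep and express the mitochondrial genome passed mostly in the lower direction as well. Of 60 genes of mitochondrial DNA and RNA maintenance, 17 fell (4 without control 1, 4 without control 2, 6 without control 3 and 8 without KO 2) and 2 rose. Polrmt (chromosome 10, 79736123 to 79746581), the RNA polymerase of mitochondria, was at 19.3, 23.5 and 24.6 CPM in controls and 5.37, 6.53 and 6.42 at day 4 (its window, with a TATAAA, is printed above; log2 fold change of -1.89, SE 0.28, with an adjusted p of 0.003 by edgeR). The pseudouridine synthases Rpusd3 and Rpusd4, which modify mitochondrial ribosomal RNA or mRNA, were at 8.68, 6.51 and 7.33 and 0, 0.568 and 0, and at 22.8, 28.6 and 24.2 and 5.58, 8.51 and 10.04. Of 77 mitochondrial ribosomal proteins 17 fell (7 without control 1, 6 without control 2, 11 without control 3 and 11 without KO 2) and 2 rose, with Mrpl38 at -0.68 and Mrpl24 at -0.87. Gatb, which corrects glutaminyl-tRNA in mitochondria, fell by 1.55 on the log2 scale, one of 5 of 17 mitochondrial translation factors that fell (1 without control 1, 1 without control 2, 1 without control 3 and 1 without KO 2). Mitochondrial import was less one-sided (6 of 52 lower, or 2 without control 1, 1 without control 2, 2 without control 3 and 15 without KO 3, and 3 higher), with both shares under the background. Pmpcb, which cleaves import signals, was at 76.5, 88.5 and 79.4 CPM and 28.1, 39.5 and 41.3, and Tomm6, of the outer membrane pore, at 65.2, 55.3 and 69.6 and 110.3, 127 and 108. For the cytosolic ribosome, 7 of 79 ribosomal proteins were higher (0 without control 2, 0 without control 3, 1 without KO 1 and 2 without KO 2) and 2 lower, both under the background, with a median of 0.02. The difference between these lists was not tested.

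Fatty acid oxidation in mitochondria fell in 24 of 39 genes (13 without control 1, 12 without control 2 and 15 without KO 2), with none higher and a median of -1.02. Acadvl, which starts the oxidation of long chains (chromosome 11, 70010183 to 70015411), was at 214, 204 and 133 CPM in controls and 69.6, 53.4 and 60.2 at day 4 (log2 fold change of -1.59, SE 0.21, with an adjusted p of 0.00223 by edgeR). Hadh and the isomerase Eci1 fell from 497, 459 and 424 to 259, 243 and 219.6 and from 113, 96.1 and 89.1 to 46.3, 44.3 and 52.2, and Decr1, which handles unsaturated chains, from 93.8, 89.5 and 71 to 24.4, 35.8 and 17.7. Peroxisomes, which shorten very long chains, had 17 of 51 genes lower (10 without control 1, 10 without control 2 and 27 without KO 3) and 5 higher (3 without control 2 and 3 without control 3). Pex7, an import receptor for peroxisomal enzymes, was at 32.5, 40.1 and 33.3 CPM and 14.7, 11.6 and 14.9, whereas Agps, of ether lipid synthesis, rose from 18.7, 23.6 and 25.1 to 54.1, 61.6 and 50.2. In the TCA cycle and pyruvate entry 8 of 34 fell (5 without control 1, 3 without control 2 and 13 without KO 3) and 2 rose: Pdk1, a kinase that blocks pyruvate entry, was at 60.8, 62.2 and 58.1 and 29.8, 15.3 and 26.9, and cytosolic Idh1 at 59, 53.9 and 58.9 and 98.4, 116 and 118.

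Xenobiotic metabolism, a function of absorptive cells, fell in 23 of 58 tested genes (17 to 27) and rose in 5 (3 without control 1, 3 without control 2, 3 without control 3 and 3 without KO 1), of 71 in the list. Besides Ces1d, the cytochromes Cyp4v3 and Cyp2e1 were at 43.5, 47.4 and 46.1 CPM and 2.89, 7.66 and 6.82, and at 26.6, 30.3 and 23.2 and 6.61, 7.95 and 6.82. The sulfotransferase Sult1d1 was at 112, 159.6 and 114 and 50.4, 33.5 and 45.8. In the same libraries the enterocyte list summed to 478 to 532 CPM, below its 953 to 1166 CPM in controls, and the part of this in the falls was not tested.

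Lysosomal enzymes fell in 28 of 53 genes (18 without control 2), against 2 that rose. Man2b1 (chromosome 8, 85083270 to 85098282), an alpha-mannosidase, was at 141, 118 and 149 CPM in controls and 43, 50.2 and 40.5 at day 4 (log2 fold change of -1.61, SE 0.16, with an adjusted p of 0.000784 by edgeR). Psap, the precursor of sphingolipid activators, was at 397, 415 and 387 and 193, 202 and 216, and Sumf1, which activates sulfatases in the endoplasmic reticulum, at 26.9, 31.4 and 29.9 and 5.99, 6.24 and 2.81. The cysteine protease Ctss was at 53.9, 51.3 and 42 and 13, 5.39 and 5.62. Each of these 4, chosen by their small adjusted p, was lower in every day 4 library than in any control. The same held for 3287 of all 12654 tested genes. Genes of the lysosomal membrane and of mTORC1 and TFEB signalling had 6 of 55 higher (3 without control 1, 3 without control 2 and 3 without control 3) and 5 lower (3 without control 1, 3 without control 2 and 3 without control 3), both shares under the background. Of that list, Lamtor2, Lamtor4 and Lamtor5, of the Ragulator complex that anchors mTORC1, fell by 1.25, 1.15 and 1.47 on the log2 scale, and Fnip1, a folliculin partner in the same pathway, rose (2.19).

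Endosomal sorting by the Commander, retromer and WASH complexes fell in 10 of 31 members (6 without control 1, 6 without control 2 and 5 without control 3) and rose in none. Commd4 was at 25.9, 23.1 and 21 CPM in controls and 5.37, 3.12 and 2.81 at day 4, Washc3 at 26.2, 21.6 and 19.1 and 5.37, 2.84 and 4.42, and the sorting nexin Snx1 at 115, 121 and 131 and 69.8, 63.6 and 66.6. GPI anchor and N-glycan synthesis fell in 14 of 51 (5 without control 1, 4 without control 2 and 3 without control 3), with the transamidase subunits Pigk, Pigs and Pigu, which attach GPI anchors to proteins, at -1.51, -1.02 and -0.92. Golgi and secretory trafficking went both ways, 11 of 46 higher (4 without control 1, 3 without control 2, 5 without control 3 and 4 without KO 2) and 5 lower (2 without control 1, 1 without control 2, 2 without control 3 and 10 without KO 3). There the coat protein genes Sec24d (11, 9.12 and 10.4 CPM and 43.4, 48.2 and 69.4) and Sec24a rose while Trappc3, of a vesicle tether, fell (50.8, 50.3 and 52.6 and 24, 19 and 21.3).

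The primary cilium was examined as 2 lists. Intraflagellar transport, which carries cargo along the cilium, had 10 of 29 tested genes lower (4 without control 1, 4 without control 2 and 4 without control 3) and none higher, of 33 in the list. Ift52 (chromosome 2, 163017354 to 163046141) was at 43.5, 38.2 and 38.7 CPM in controls and 18, 10.8 and 16.1 at day 4 (log2 fold change of -1.42, SE 0.24, with an adjusted p of 0.00439 by edgeR). Ift27 was at 23.9, 17.2 and 18.6 and 3.93, 3.41 and 0.803, and Ttc21b at 8.47, 11 and 10.8 and 2.27, 0.851 and 1.2. The BBSome and the transition zone at the base of the cilium had 9 of 35 lower (1 without control 1, 1 without control 2 and 2 without control 3). Mks1, of the transition zone, was at 6.42, 5.69 and 5.52 CPM in controls and had no count in any of the 3 day 4 libraries. Medians of the transport list at day 4 were -1.13, -1.56 and -2.34 in replicates 1, 2 and 3, lowest in the library with the fewest nuclear counts.

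**Figure D4:**
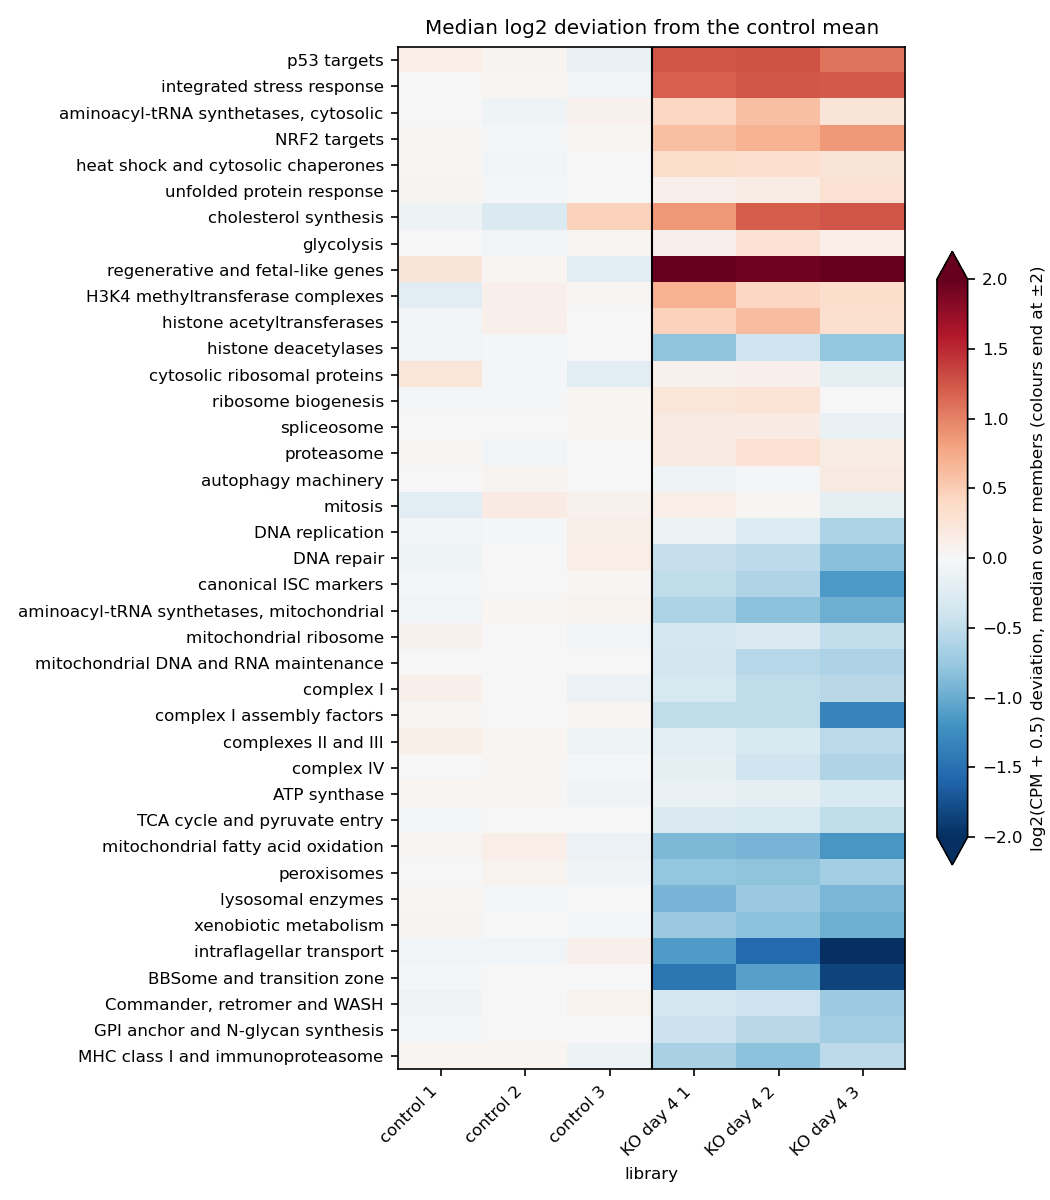
Median over the members of each of 39 lists of the deviation from the control mean in log2(CPM + 0.5), for each control and KO day 4 library (colours end at 2 in either direction). The integrated stress response is at 1.20 to 1.24 in all 3 day 4 libraries, and intraflagellar transport at -1.13 to -2.34.

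Chromatin genes were examined because KANSL1 belongs to an acetyltransferase complex. Histone deacetylases and sirtuins, which remove acetyl groups, fell in 5 of 17 genes (3 without control 2) and none rose. Hdac11 (chromosome 6, 91156665 to 91174692) was at 63.3, 67.7 and 50.8 CPM in controls and 4.34, 2.55 and 3.21 at day 4 (log2 fold change of -4.13, SE 0.27, with an adjusted p of 0.000154 by edgeR). Sirt4, a mitochondrial sirtuin, was at 6.83, 7.96 and 6.7 and 0.62, 0.284 and 0.401. Of 16 acetyltransferases 1 rose, a share under the background, and none fell. The rise was that of Ep300, at 12.4, 13.8 and 11.9 CPM and 31.6, 22.7 and 28.1, and its call was lost without control replicate 3 (edgeR adjusted p = 0.0510). Of 14 genes of the complexes that methylate histone H3 at lysine 4, 4 rose (2 without control 1, 2 without control 2, 2 without control 3 and 2 without KO 2). Kmt2d was at 3.42, 1.1 and 4.26 CPM in controls and 25.8, 21.9 and 51 at day 4, and Kmt2b at 10.04, 13 and 13.2 and 25.2, 30.7 and 32.5. Of 25 Polycomb genes 2 rose, a share under the background, and none fell. One that rose was Pcgf3, from 46.7, 45.8 and 40.6 to 88.6, 94.2 and 99.9.

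Stem cell markers fell in 11 of 25 tested genes (7 without control 1 and 6 without control 2) and rose in 2, with a median of -0.79. Ascl2, the transcription factor of Lgr5+ cells, was at 116, 90.2 and 111 CPM in controls and 35.3, 46.8 and 29.3 at day 4, and the matrix protein Smoc2 at 385, 349.7 and 369 and 202, 154 and 125. Nkd1, a feedback inhibitor of Wnt signalling, rose from 3.14, 4.01 and 3.55 to 15.3, 21.3 and 11.2. Library medians of the list were -0.51, -0.60 and -1.15, lowest in KO day 4 replicate 3. Of 10 tested genes of EGF family ligands, receptors and their regulator Errfi1, 5 rose (3 without control 2 and 3 without control 3) and 2 fell. The ligands Areg and Ereg, made after injury, were at 2.19, 3.02 and 0.709 CPM and 40.7, 26.1 and 47.8, and at 0.342, 0.349 and 0.0788 and 8.68, 3.69 and 15.7. Ereg, near 0 in controls, passed the filter through day 4 and could be counted only as a rise. Both ligands are also in the regenerative list below, so the counts of these lists share members. The receptors Erbb2 and Erbb3 fell from 115, 121 and 93.1 CPM to 38.6, 28.9 and 13.6 and from 134, 160.5 and 105 to 62.6, 39.5 and 38.1. The ligands Hbegf and Tgfa and the receptor Egfr did not pass (log2 fold changes -0.43, 0.59 and -0.51; these 3 are named after their values were seen), and a difference between ligands and receptors was not tested. Of 19 tested genes of the BMP and activin pathway 2 rose and 2 fell, both shares under the background. One of the falls was Id1, a target of BMP signals, from 173, 196 and 92.4 to 37.8, 47.1 and 14. Of 24 tested Notch pathway and secretory genes 8 rose, or 3 to 9 over the fits with 1 library left out, and 1 fell. The fall was that of Notch1, the receptor that holds cells from secretory fate, from 40.5, 55.1 and 60.5 to 24.2, 17 and 18.1. The secretory fate factors Spdef, Atoh1 and Bhlha15 rose (1.77, 1.22 and 2.82 on the log2 scale), in libraries whose Paneth, goblet and enteroendocrine sums were higher. Spdef and Atoh1 are themselves in the goblet list, so its sum includes them.

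DNA replication fell in 12 of 52 genes (5 without control 1, 4 without control 2 and 4 without control 3) and rose in none, with Prim1, the primase, at 83.8, 67.3 and 77.3 CPM in controls and 39.9, 26.7 and 29.3 at day 4 and Pold1, a DNA polymerase, at 79.5, 89.4 and 96.7 and 57.6, 45.1 and 46.6. Library medians of that list at day 4 ran from -0.11 in replicate 1 to -0.64 in replicate 3. Mitosis genes had 2 of 42 higher and 2 lower, both shares under the background, although without KO day 4 replicate 3 there were 5 higher. Ect2, needed for cytokinesis, rose from 49.6, 51.8 and 59.4 CPM to 96.5, 99.1 and 82.3. Cyclin D2, Ccnd2, rose from 201, 235 and 229 to 503, 475 and 445, 1 of 5 of 26 cyclin and CDK genes that rose (3 without control 1 and 2 without control 2). DNA repair had 12 of 62 lower (5 without control 1, 5 without control 2, 6 without control 3 and 20 without KO 3) and 2 higher, among the falls Neil1, a base excision glycosylase (10.7, 13.5 and 13.9 CPM and 1.86, 0.284 and 0.803), Xpc, which detects bulky lesions (22.7, 22.8 and 18.8 and 9.09, 6.24 and 8.03), and Xrcc5, of the end-joining protein Ku (57.1, 38.9 and 57.1 and 24.4, 24.4 and 18.9).

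Genes of the regenerative, fetal-like state that follows crypt injury rose in 15 of 21 tested members (14 to 16) and fell in 1. The fall was that of Ccn1, from 126, 155 and 48.1 CPM in controls to 2.89, 12.8 and 0.803 at day 4. Its log2 fold change was -4.285 (edgeR adjusted p = 0.00459), and it is named after its value was seen. The 6 others of the 27 did not pass the filter, and members near 0 in controls passed it through day 4. Anxa2, an annexin that was well above the filter in every library, was at 126, 111 and 108 CPM in controls and 408, 419 and 544 at day 4. Anxa3 was at 1.3, 1.05 and 1.5 and 21.5, 17.9 and 28.5. Keratins rose in 5 of 6 tested genes (5 to 5), with Krt18 at 808, 635 and 582 CPM and 2059.6, 2157 and 2640 and Krt7 at 247, 169 and 206 and 414, 415 and 533. At cell junctions 9 of 35 rose (5 without control 1 and 3 without control 2) and 8 fell (4 without control 1, 3 without control 2, 3 without control 3 and 4 without KO 2): the scaffold Tjp1 was at 21.7, 23.1 and 29.3 and 95, 92.2 and 128 and the claudin Cldn4 at 27.7, 16.2 and 13.9 and 70.5, 84.9 and 142, whereas Epcam fell from 1089.6, 1055 and 949 to 569, 534 and 420.3 and Cldn15 from 387, 376 and 411 to 192, 194 and 159.8. The membrane linker Ezr rose from 157, 159 and 169 to 393, 400.5 and 451. The laminin gene Lamb1 was at 1.09, 1.1 and 1.34 CPM and 10.7, 25.5 and 12.8.

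MHC class I presentation and the immunoproteasome fell in 11 of 22 tested genes (3 without control 1, 3 without control 2, 4 without control 3, 7 without KO 1 and 4 without KO 2) and rose in none. Psmb10, a catalytic subunit, was at 245, 215 and 178 CPM in controls and 74.4, 93.9 and 104 at day 4, and H2-T3, which binds CD8 on intraepithelial lymphocytes, at 32.9, 34.8 and 35.7 and 10.5, 8.51 and 13.2. For MHC class II no member passed, and the levels spread within both groups: Cd74 was at 227, 534 and 111 CPM in controls and 39.7, 126 and 462 at day 4. Interferon response genes rose in 11 of 41 (5 without control 1, 5 without control 2 and 4 without control 3) and fell in 1. Some were near 0 in controls, such as Cxcl10 (0.137, 0 and 0.552 CPM and 9.71, 7.95 and 16.5), so they passed the filter through day 4 and could be counted only as rises. The mast, myeloid and pan-leukocyte sums were higher in the same libraries, at 581 to 1666, 44.2 to 106 and 169 to 315 CPM, and their part in this was not tested. Irf7 was at 9.22, 4.24 and 5.28 CPM and 29.96, 25.3 and 52.6, whereas Ifitm3 fell from 147, 207 and 126 to 47.9, 55.3 and 62.6. Mucosal defence proteins had 6 of 19 higher (4 to 7) and 4 lower (3 to 5). Of those higher, Itln1, Ang4, Reg4 and Pla2g2a are also in the Paneth list and Tff3 in the goblet list (log2 fold changes 2.70, 2.45, 2.04, 2.73 and 1.12, some of them named after their values were seen), and Ang4 and Tff3 lost their call without control replicate 2. Pigr, which carries IgA into the lumen, fell from 771, 1014 and 1018 CPM to 284, 287 and 324 and Lypd8, which keeps bacteria off the epithelium, from 1004, 989 and 863 to 386, 319.9 and 384. Nos2, which makes nitric oxide, was at 0.615, 1.28 and 0.63 and 6.2, 17.9 and 28.5. Of 25 nuclear receptors 4 fell (3 to 6) and 1 rose, near the background for falls. Vdr, for vitamin D, fell from 237, 284 and 215 to 91.7, 80.6 and 98.7 and Thra, for thyroid hormone, from 71.9, 80.7 and 86.2 to 36.2, 33.8 and 31.7. Immediate early genes also went both ways (11 of 31 higher, or 8 to 11, and 9 lower, or 5 without control 1, 4 without control 2 and 5 without KO 1): Fos was at 534, 573 and 279 CPM and 89.3, 102 and 96.3, and Klf6 at 38.7, 42.1 and 25.8 and 108, 119 and 152.

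The called genes differed in length, which the fit did not use. Among 9253 protein-coding genes of at least 5 CPM in controls, split into 5 equal classes by exonic length, 23.3% of the shortest class (180 to 2531 bases) and 6.11% of the longest (7627 to 123179 bases) fell, while 9.5% and 16.2% rose. The median log2 fold change went from -0.33 to 0.18. In each library the median deviation from the control mean of the longest class, less that of the shortest, was -0.13, 0.05 and 0.08 in controls and 0.48, 0.46 and 0.52 at day 4 (exact two-sided permutation p = 0.1, the smallest 3 against 3 allow). The groups did not overlap, and under every alternative setting, leave-one-out fits included, the difference between the median fold changes of these classes was between 0.45 and 0.54. Length and list went together for some groups: complex I and complex IV genes had median exonic lengths of 1643 and 1478 bases, within the shortest class, as had cytosolic ribosomal proteins, at 1770 bases, whose median change was 0.02. Lysosomal enzymes, at 3674 bases, and fatty acid oxidation genes, at 4128, were in classes 2 and 3. The part of length in any list's change was not tested.

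**Figure D5:**
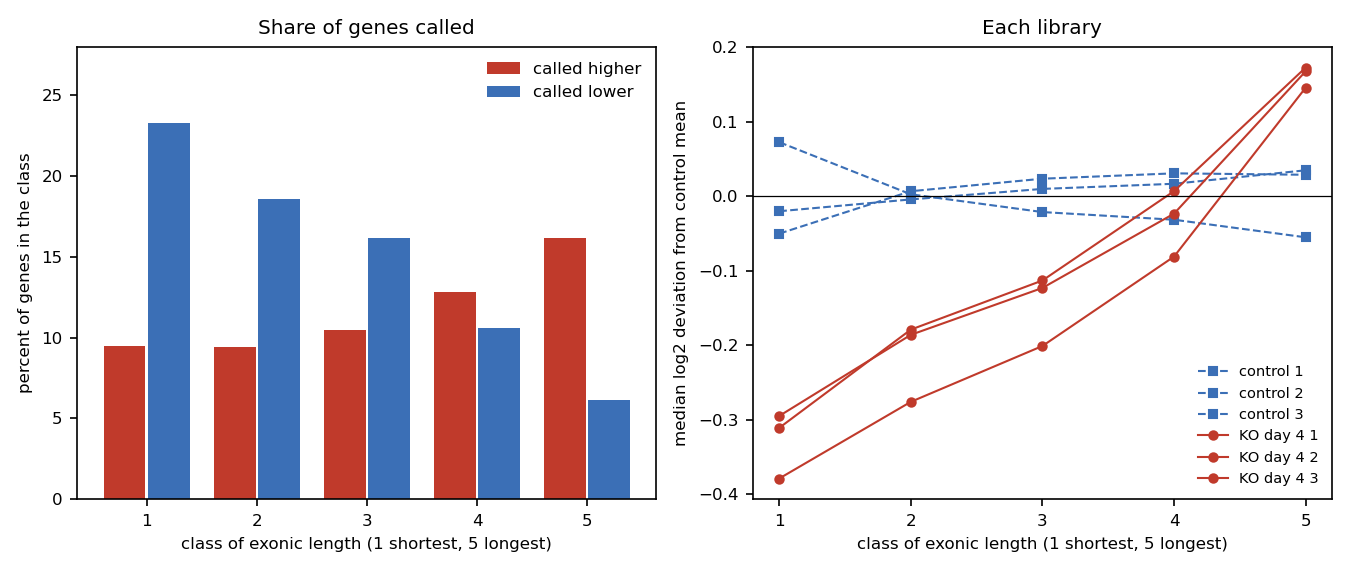
Left, percent of protein-coding genes called higher (red) or lower (blue) in each of 5 classes of exonic length. Right, the median deviation from the control mean in log2(CPM + 0.5) for each library (control, blue squares; KO day 4, red circles); the day 4 libraries climb from -0.30 to -0.38 in the shortest class to 0.15 to 0.17 in the longest.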

How the data were processed

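RNA of sorted Lgr5-GFP+ cells was measured by mRNA sequencing. The authors deposited 1 table of raw counts per Ensembl gene. Per the submitters' processing notes, reads were aligned with HISAT2 2.0.4 to GRCm38; the counting tool, strandedness and gene annotation are not given in the sources used here. Of 57180 identifiers, 51884 were named from GENCODE M21, which also gave coordinates and exonic lengths. The 37 mitochondrial genes were left out of library sizes and tests.

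Only the 6 libraries entered the fit: filterByExpr (minimum count 10, total 15), TMM factors and edgeR 4.0.16 quasi-likelihood F-tests in R 4.3.3, with Benjamini-Hochberg adjustment over all 12654 genes. Each SE is the size of the log2 fold change divided by the square root of F. In counts simulated from these libraries, with 12110 genes tested, 17% of genes changed by 2-fold and 72% of those changed by 4-fold were recovered. Only 100 genes were changed by each fold there, against 3272 genes called in the data. The adjustment was therefore stricter, and these shares do not give the recovery to expect in this comparison. Alternatives were other scalings and filters, DESeq2 1.42.0, limma 3.58.1 voom, a test against a fold of 1.5, all 9 libraries, a replicate block, and each library left out, where a group of 2 is assumed to vary like the other. Intervals on counts cover counting error only.

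The comparison and gene lists were chosen with earlier results of these data known. Genes named come from the NSL and MSL members, the 10 largest called changes each way at a mean of at least 5 CPM and the 8 each way at 100 CPM, with no overlap between groups (outside immune, blood and stromal lists and clone-type names), and the up to 4 members of each list with the smallest adjusted p.

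With strandedness unknown, a gene and a partner overlapping it cannot be separated. This holds for Aars (with Exosc6), Acadvl (Dvl2), Bak1 (Ggnbp1), Cand2 (Rpl32), Erbb2 (Mien1), Ezr (Sytl3), Fars2 (Lyrm4, Nrn1), Fdft1 (Ctsb), Haghl (Narfl), Irf7 (Phrf1), Kat8 (Prss8), Mcrs1 (Kcnh3), Mrpl24 (Rrnad1), Msl1 (Casc3), Pfkp (Pitrm1), Pigk (St6galnac5), Sqstm1 (Mrnip), Surf1 (Surf2), Thra (Nr1d1) and Tomm6 (Usp49).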

Additional observations from a re-analysis of the deposited data

Results flagged for a closer look

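Transcripts of the mitochondrial genome, which no gene test used, made up 69.4% of counts on average at day 4 (SD 2.63, n = 3) against 20.03% in controls (SD 5.08, n = 3), above the control level in 3 of 3 libraries. The exact two-sided permutation p was 0.1, the smallest that 3 against 3 libraries allow. The part of this share in the nuclear results was not tested.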

How the results depend on the processing

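The counts of called genes, 1739 higher and 1533 lower, became 870 and 4243 with scaling by nuclear library size alone and 823 and 575 against a fold of 1.5. With 1 library left out they ranged from 891 to 1949 higher and from 597 to 2111 lower. The cause was not tested, beyond fewer libraries in these fits. Under the other alternatives, one of them added after seeing the data (unprocessed pseudogenes left out), both counts stayed within 1.5 times, except 958 lower with a replicate block (1193 higher). Replicate numbers did not pair the libraries: deviations of same-numbered libraries correlated at -0.02, -0.03 and -0.03 across genes, and the block changed no call of a named gene. Of 180 named genes with a fitted value, none reversed its direction as a call, 16 of the 164 called lost their call against a fold of 1.5, and 7 with library size alone. Ccn1 is not counted among these named genes. Tomm6 lost its call with all 9 libraries. Lgr5, not called above, passed with DESeq2 (adjusted p = 0.024), with no filter on low counts, with library size alone and without KO day 4 replicate 2, and had an adjusted p of up to 0.16 with other libraries left out. Kansl2 passed without KO day 4 replicate 3 and with limma voom, Msl2 without KO day 4 replicate 1, and Msl2, Msl3, Egfr and Hbegf with library size alone. Nuclear counts of 3115374 to 5614186 per day 4 library limit the test of weakly expressed genes.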
